A study of Mus musculus with 24 samples.

Results

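The data described here concern 8 genes that place lymphocytes in tissues or let them leave: the chemokine receptors Cxcr6, Cxcr3, Ccr2, Ccr9, Ccr7 and Cxcr4, the sphingosine 1-phosphate receptor S1pr1, and Klf2, a transcription factor. They were chosen by name for their known roles, out of 55401 gene identifiers in the single-cell count tables. The cells were liver invariant natural killer T (LiNKT) cells, sorted from NOD mice as αGalCer/CD1d tetramer-positive cells. NOD is an inbred strain that develops autoimmune diabetes. Treated mice received nanoparticles coated with CD1d molecules that present the glycolipid α-galactosylceramide (αGalCer/CD1d-NP), 20 µg per dose, 2 doses a week for 5 weeks. The control samples are labelled untreated. The study's text also speaks of controls given vehicle or particles without CD1d, and the labels do not separate these, so an effect of the antigen and an effect of the injections cannot be told apart. SmartSeq2, which sequences whole transcripts of single cells sorted into plates, was run on LiNKT cells of 3 untreated and 3 treated male mice of 13 to 15 weeks. Whole genome bisulfite sequencing (WGBS), which reads the methylated share of each cytosine, was run on LiNKT cells of 7 untreated females of 17 weeks and of 4 treated mice of 16 weeks, whose sex is not given in the sources used here. The single-nucleus chromatin data (10X multiome) came from 5 untreated and 4 treated males of 13 to 15 weeks. Each table gave 1 sample per group, with mice not separated, so no difference between groups could be checked against replicates here. For WGBS the study's text gives 3 replicates per group, which the values used here merge. All intervals below are 95% exact intervals (Poisson for sums of counts, binomial for shares) that cover counting error only. Where no cell had reads, the share allowed is instead that of 3 cells.

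iNKT cells patrol the liver sinusoids and stay there for long periods. CXCR6 binds CXCL16 on the sinusoidal endothelium and is the receptor best known for keeping iNKT cells in the liver. CXCR3 and CCR2 guide cells to inflamed tissue, CCR9 to the gut and thymus, CCR7 to lymph nodes, and CXCR4 binds CXCL12. S1PR1 lets lymphocytes follow sphingosine 1-phosphate out of tissues into blood and lymph, and KLF2 is a transcription factor that switches S1pr1 on.

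The genome around these genes held differentially methylated regions (DMRs), and stretches of 4 of them are given first, 2 less and 2 more methylated in treated mice. All are GRCm38 reference sequence (RefSeq), 5′ to 3′ on the strand of the named gene, with each CpG in capitals, since the CpG is where methylation was measured. The Cxcr6 stretch is chr9:123806209-123806474, plus strand, and runs up to the last base before the Cxcr6 transcript. It belongs to a DMR of 542 bases that also lies in an intron of Fyco1, an autophagy adaptor gene on the other strand. The Ccr9 stretch is chr9:123740870-123741169, plus strand, in an intron of the longest Ccr9 gene model, 26.3 kb before the start used here. A further DMR over that start, described below and not printed, differed in the other direction. The Ccr7 stretch is chr11:99147164-99147463, minus strand, in an intron of Ccr7. The S1pr1 stretch is chr3:115704538-115704837, minus strand, past the end of the gene, with no annotated gene on it.
Cxcr6 promoter: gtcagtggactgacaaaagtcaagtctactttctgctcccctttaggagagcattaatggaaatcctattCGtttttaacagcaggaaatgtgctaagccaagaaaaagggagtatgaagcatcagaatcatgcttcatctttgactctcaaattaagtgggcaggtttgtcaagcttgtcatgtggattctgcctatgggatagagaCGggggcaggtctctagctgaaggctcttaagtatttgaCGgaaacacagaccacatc
Ccr9 intron: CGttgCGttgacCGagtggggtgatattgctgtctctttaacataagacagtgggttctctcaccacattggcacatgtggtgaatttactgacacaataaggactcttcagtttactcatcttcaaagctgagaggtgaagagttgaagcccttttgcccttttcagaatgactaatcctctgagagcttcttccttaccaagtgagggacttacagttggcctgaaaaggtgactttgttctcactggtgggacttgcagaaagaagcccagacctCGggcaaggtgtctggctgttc
Ccr7 intron: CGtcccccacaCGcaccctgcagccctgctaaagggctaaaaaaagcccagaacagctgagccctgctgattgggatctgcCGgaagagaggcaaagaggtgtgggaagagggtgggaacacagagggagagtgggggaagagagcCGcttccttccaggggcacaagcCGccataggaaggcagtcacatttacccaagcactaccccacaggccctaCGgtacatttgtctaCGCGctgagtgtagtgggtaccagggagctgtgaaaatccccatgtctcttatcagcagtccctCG
S1pr1 downstream: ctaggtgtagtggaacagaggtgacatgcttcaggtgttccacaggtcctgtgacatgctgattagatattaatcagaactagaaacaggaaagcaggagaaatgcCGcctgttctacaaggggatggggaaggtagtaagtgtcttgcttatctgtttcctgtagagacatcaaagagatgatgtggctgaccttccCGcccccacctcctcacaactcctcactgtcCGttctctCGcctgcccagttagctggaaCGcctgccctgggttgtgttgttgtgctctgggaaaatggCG

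In the Cxcr6 stretch the 3 CpGs were already lowly methylated without treatment and nearly bare after it. From 5′ to 3′ they were methylated at 16.5%, 19.5% and 17.5% in untreated mice and at 1%, 0% and 2% in treated mice (authors' value per group, mean of both strands). In the Ccr9 stretch the 4 CpGs differed much more. They were at 51%, 74%, 79% and 28.5% in untreated and at 10.5%, 13%, 14.5% and 3% in treated mice. The Ccr7 and S1pr1 stretches went the other way. The 9 CpGs of the Ccr7 stretch lay between 2.5% and 13% in untreated mice and between 35.5% and 78% in treated mice. The 6 CpGs of the S1pr1 stretch lay between 2.5% and 11.5% in untreated mice and between 35% and 66% in treated mice.

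Library depth was similar in both SmartSeq2 groups, while some markers of other cells and of proliferation differed. The cells given a sub-cluster in the study's annotation were used, 273 of 284 untreated and 251 of 282 treated cells. Each cell name carries a 1 or 2 that was read here as the sequencing lane, which no label states. Their median depth was 635257 and 599896 counts per cell, with 861 and 850 genes detected. Every untreated cell had reads of at least 1 of 9 T and iNKT cell markers, against 95.2% of treated cells. Among treated cells 13 had no T cell marker or carried at least 2 of 6 macrophage or 2 of 4 hepatocyte markers, all of them in sub-cluster 2, and no untreated cell did. Summed macrophage markers ranged from 0 to 3.33 CPM (counts per 1000000) per cell in untreated cells and from 0 to 119500 CPM in treated cells. All 6 macrophage markers were seen in treated cells, and Lyz2 and Adgre1 were at 0 in untreated cells. Of the 4 B cell markers 4 were at 0 in treated cells and 3 in untreated cells, and both neutrophil markers were at 0 in both groups. Ncr1, a natural killer cell receptor, had reads in 12 of 273 untreated and 47 of 251 treated cells. The proliferation markers Mki67 and Top2a had reads in 0 untreated and 21 treated cells, dendritic cell markers in 4 and 5, endothelial markers in 6 and 9, and markers of CD8 or regulatory T cells in 3 and 6. Treated values of the members over all cells are also given without these 13 cells, an alternative chosen after the data were seen.

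Among the members, 7 had at least 10 summed counts, and 1 of them was over 2-fold higher and 3 over 2-fold lower in treated cells. Among 15052 genes with that many counts, 20.1% were over 2-fold higher and 17.2% over 2-fold lower. S1pr1 was the member on the higher side, and Cxcr6, Ccr9 and Cxcr4 were on the lower side. The place of Ccr9 rests on 3 untreated cells, of which 1 was in lane 1, where Ccr9 was at -0.55 on the log2 scale and within 2-fold. Cxcr3, Ccr2 and Klf2 stayed within 2-fold, and Ccr7 had no read. The median log2 ratio of treated over untreated was -0.41 over the 7 members and 0.02 over all genes with 10 or more counts, with 1 CPM added to each side.

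Cxcr6, the liver-homing receptor, had by far the most reads of the members, and its reads were found in fewer treated cells. It was detected in 206 of 273 untreated cells, 75.5% (69.9% to 80.4%), and in 114 of 251 treated cells, 45.4% (39.2% to 51.8%). These intervals did not overlap. Summed over cells, Cxcr6 reached 4638 CPM (4628 to 4648) without treatment and 2025 CPM (2018 to 2032) with it, -1.20 as a log2 ratio. Over all cells used, both the number of cells with reads and the level in these cells were lower in treated mice. Their median was 4717 CPM in untreated cells (quartiles 3189 and 8457) and 3925 CPM in treated cells (quartiles 2601 and 5713). With every cell thinned to 100000 counts, 74.8% of 270 untreated and 45.2% of 248 treated cells kept reads of Cxcr6. Without the 13 doubted cells the treated share was 47.9% and the level 2130 CPM. Each sequencing lane gave the same order, with 72.3% and 82.0% of untreated cells and 45.1% and 46.2% of treated cells in lanes 1 and 2.

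**Figure D1:**
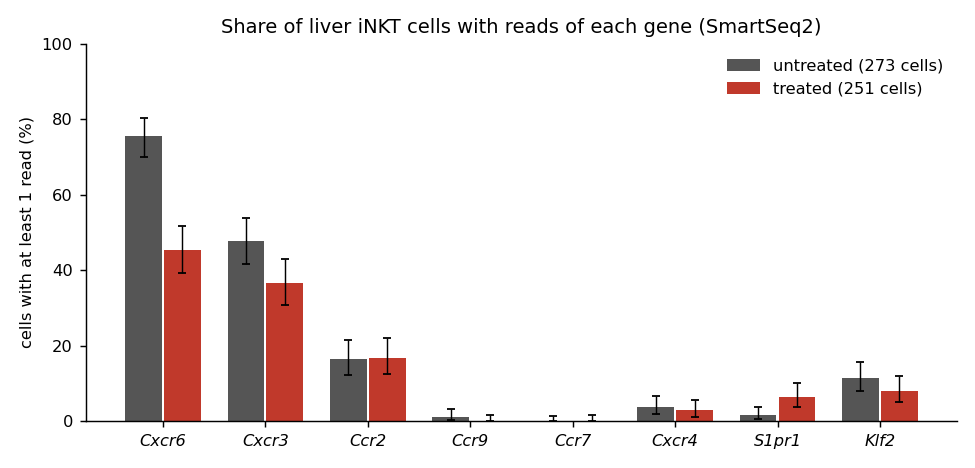
Bars give the percentage of SmartSeq2 cells with at least 1 read of each of the 8 genes in untreated (grey, 273 cells) and treated (red, 251 cells) mice; error bars are exact 95% binomial intervals for counting error. Cxcr6 was at 75.5% and 45.4% with intervals apart, while the intervals of Cxcr3, Ccr2, Cxcr4, Klf2 and S1pr1 overlapped.

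Cxcr3, the receptor for CXCL9 and CXCL10, was the next most detected member. Reads were present in 130 untreated cells, 47.6% (41.6% to 53.7%), and in 92 treated cells, 36.7% (30.7% to 42.9%). The intervals overlapped. Summed over cells, it reached 1492 CPM (1486 to 1498) without treatment and 1293 CPM (1287 to 1299) with it, -0.21 as a log2 ratio. In the cells with reads the median was 2841 CPM untreated and 3038 CPM treated. Cxcr3 was thus seen in somewhat fewer treated cells, at a like level per cell with reads. Without the 13 doubted cells the treated share was 38.7% and the level 1360 CPM.

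Ccr2, the receptor for CCL2 that is also abundant on monocytes, was found in equal shares. It had reads in 45 untreated cells, 16.5% (12.3% to 21.4%), and in 42 treated cells, 16.7% (12.3% to 21.9%). The summed level was 134.3 CPM untreated and 116.5 CPM treated, a log2 ratio of -0.20. Its reads were spread unevenly, as 1 cell held 13.7% of the untreated and another 13.3% of the treated sum. The 2 lanes disagreed on its direction. In lane 1 it was at 150.1 CPM untreated and 75.9 CPM treated, and in lane 2 at 104.4 and 204.5 CPM. Of the 42 treated cells with Ccr2 reads, 4 also had reads of a macrophage marker and 3 had no T cell marker, against none in both counts among the 45 untreated cells. Without the 13 doubted cells the treated share was 15.97% and the level 122.3 CPM.

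Ccr9, the gut and thymus receptor, was rare and seen without treatment alone. Of the 273 untreated cells 3 had reads, with 52, 1227 and 2568 reads, and all 3 were in sub-cluster 2 and also carried Cxcr6. The summed level was 22.3 CPM, of which 1 cell gave 66.8%. Reads were found in 0 of 251 treated cells, which allows a share of up to 1.20%, while 3 of 273 is a share of 1.10% (0.227% to 3.18%). Among the annotated cells, 0 and 1.10% thus lay within counting error of each other. Of the cells that carry no annotation, 2 of 11 untreated cells (409 reads) and 0 of 31 treated cells had Ccr9 reads, which made the untreated share 1.76% over all cells of the tables. Exons of the Ccr9 model share 1932 of 10260 bases with AC165425.1 on the other strand, and the strand setting of the counting is not given in the sources used here. Reads of Ccr9 and of AC165425.1 can thus not be told apart there.

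Ccr7, the lymph node receptor, had 0 reads in 273 untreated and 0 in 251 treated cells, which allows shares of up to 1.10% and 1.20%. Its reads appeared only among the cells left out of the study's annotation, in 2 of 31 treated cells with 1526 reads together, of which 1 cell held 1506. Both had T cell markers. None of the 11 untreated cells left out had Ccr7 reads.

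Cxcr4, the CXCL12 receptor, was also scarce. It had reads in 10 untreated cells, 3.66% (1.77% to 6.63%), and in 7 treated cells, 2.79% (1.13% to 5.66%). Summed over cells, it reached 4.11 CPM (3.82 to 4.43) without treatment and 0.523 CPM (0.414 to 0.653) with it, -1.75 as a log2 ratio with 1 CPM added to each side. At such low levels the amount added counted, with -2.76 for 0.1 CPM and -0.42, within 2-fold, for 10 CPM. The shares of cells were thus close while the sums were not. The gap in the sums lay in the reads per cell, with a median of 47.5 reads in the 10 untreated and 7 reads in the 7 treated cells with Cxcr4. A single cell held 33.4% of the untreated and 44.9% of the treated sum. Of the 7 treated cells, 2 had a macrophage marker and 2 had no T cell marker. Without the 13 doubted cells 5 of 238 treated cells (2.10%) had reads, at 0.381 CPM.

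S1pr1, the egress receptor, was the member with more reads after treatment. It was detected in 4 untreated cells, 1.47% (0.401% to 3.71%), and in 16 treated cells, 6.37% (3.69% to 10.2%). These intervals met at their ends. Summed over cells, it reached 9.49 CPM (9.03 to 9.96) without treatment and 61.9 CPM (60.6 to 63.2) with it, 2.58 as a log2 ratio. S1pr1 was well covered wherever it was seen, with at least 168 reads in each untreated and at least 176 in each treated cell that had any. The medians of these cells were 507.9 CPM and 655 CPM, so that the higher sum lay in the number of cells. With 1 cell left out of each group, the cell with the most S1pr1 reads, the sums were 4.62 and 41.9 CPM. Without the 13 doubted cells the treated share was 6.72% and the level 65.1 CPM. All 16 treated cells had T cell markers, and none had a macrophage, hepatocyte or Ncr1 read, while 1 had reads of an endothelial marker and 2 of a proliferation marker. S1PR1 is also known from endothelium. Both lanes gave the same order, with 1.09% and 2.25% of untreated and 6.36% and 6.41% of treated cells. The treated level varied more, at 46.55 CPM in lane 1 and 95.11 CPM in lane 2, against 9.50 and 9.46 CPM untreated. A further 7 of 31 treated cells outside the annotation carried S1pr1, against 0 of 11 untreated ones.

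Klf2, the factor upstream of S1pr1, was within 2-fold. It had reads in 31 untreated cells, 11.4% (7.85% to 15.7%), and in 20 treated cells, 7.97% (4.94% to 12.04%), at 43.5 and 32.5 CPM, a log2 ratio of -0.41. A single cell held 15.2% of the untreated and 34.1% of the treated sum. Without the highest cell of each group the levels were 37.04 and 21.5 CPM, and the log2 ratio -0.76. In the cells with reads the medians were close, 246.5 and 249.7 CPM, and 19 of 238 treated cells had reads without the 13 doubted cells. The lanes differed here too, with 8.70% and 9.83% in lane 1 and 16.9% and 3.85% in lane 2 for untreated and treated cells. Among treated cells, Klf2 was in 2 of 16 with S1pr1 (12.5%, 1.55% to 38.4%) and in 18 of 235 without it (7.66%, 4.60% to 11.8%), and it was in none of the 4 untreated cells with S1pr1.

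Per kb of annotated exon, the order of levels in untreated cells was Cxcr6 (2402 CPM per kb), Cxcr3 (861.9), Klf2 (23.6), Ccr2 (19.9), S1pr1 (3.11), Cxcr4 (2.28), Ccr9 (2.17) and Ccr7 (0). In treated cells it was Cxcr6 (1049 CPM per kb), Cxcr3 (747), S1pr1 (20.3), Klf2 (17.6), Ccr2 (17.2), Cxcr4 (0.289), and Ccr9 and Ccr7 at 0. Cxcr6 and Cxcr3 led in both groups. The change of place was that of S1pr1. The length used joins all annotated exons of a gene, 6.76 kb for Ccr2, 3.05 kb for S1pr1 and 1.85 kb for Klf2. Without this division treated Ccr2 (116.5 CPM) stood above S1pr1 (61.9 CPM) and Klf2 (32.5 CPM). Klf2, Ccr2 and treated S1pr1 were neighbours in this order, and with 1 sample per group no spread between samples is known for them.

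**Figure D2:**
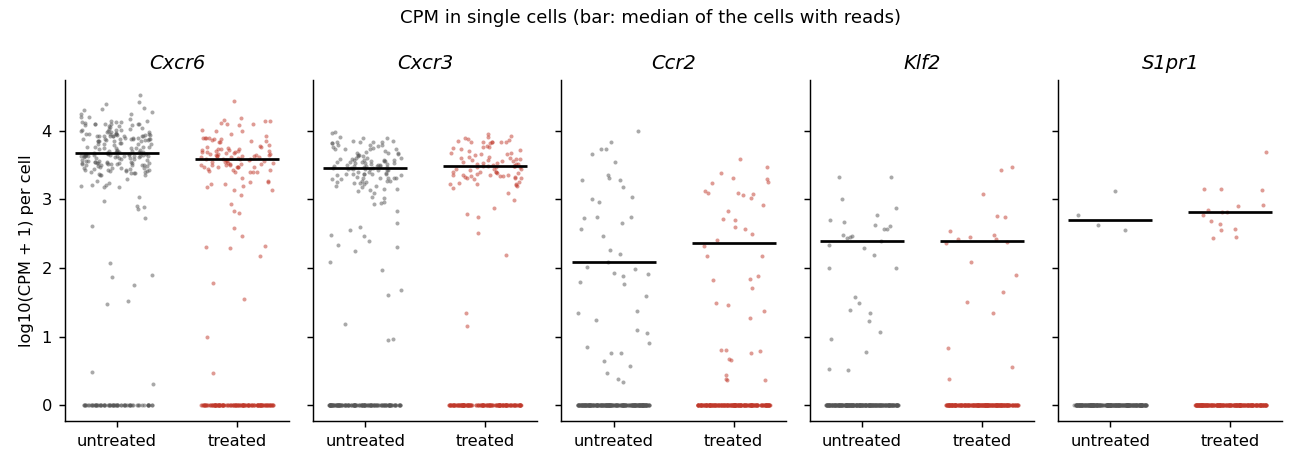
Each point is 1 SmartSeq2 cell, with its level of Cxcr6, Cxcr3, Ccr2, Klf2 or S1pr1 as log10(CPM + 1) on the vertical axis and the group on the horizontal axis; black bars are medians of the cells with reads. Cells with Cxcr6 reads had medians of 4717 CPM in untreated and 3925 CPM in treated mice, and more treated cells lay at 0, and S1pr1 was seen in 4 untreated and 16 treated cells.

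The study's sub-clusters divided these cells, and their labels rest on expression in the same cells, so the values by sub-cluster are a description. Sub-cluster 2 held 228 untreated and 61 treated cells, sub-cluster 4 held 43 and 133, and sub-cluster 5, which the study names Tr1-like (LiNKTR1) cells, held 57 treated cells alone. Cxcr6 was detected in 78.5% (72.6% to 83.7%) of untreated and 36.1% (24.2% to 49.4%) of treated sub-cluster 2 cells. In sub-cluster 4 it was detected in 60.5% (44.4% to 75.02%) and 52.6% (43.8% to 61.4%), and in sub-cluster 5 in 38.6% (26.0% to 52.4%). The 13 doubted cells are part of treated sub-cluster 2, and none of them had Cxcr6 reads. Without them the share there was 22 of 48 cells, 45.8% (31.4% to 60.8%). The interval of the treated share thus lay under that of the untreated share in sub-cluster 2, with and without these cells, and overlapped it in sub-cluster 4. In cells with Cxcr6 reads the median was not lower in treated sub-cluster 2, at 4739 CPM untreated and 5058 CPM treated. It was 4763 and 3826 CPM in sub-cluster 4 and 3500 CPM in sub-cluster 5. Cxcr3 was lowest in sub-cluster 5, where 21.1% (11.4% to 33.9%) of cells had reads, against 45.9% (37.2% to 54.7%) in treated sub-cluster 4. Its interval in sub-cluster 5 overlapped that of treated sub-cluster 2, at 31.15% (19.9% to 44.3%). Without the doubted cells the latter was at 39.6% (25.8% to 54.7%), and the intervals still overlapped. The share with Ccr2 was highest in sub-cluster 5, at 31.6% (19.9% to 45.2%) against 10.5% (5.88% to 17.03%) in treated sub-cluster 4. Its interval overlapped those of untreated sub-cluster 4 and of sub-cluster 2, at 18.0% (13.2% to 23.6%) untreated and 16.4% (8.15% to 28.1%) treated. By level, Ccr2 was higher in untreated sub-cluster 2, at 146.7 CPM against 135.7 CPM in sub-cluster 5. S1pr1 was detected in 9 of 57 sub-cluster 5 cells, 15.8% (7.48% to 27.9%), and in 2 of 133 treated sub-cluster 4 cells. In treated sub-cluster 2 it was in 5 of 61 cells, 8.20% (2.71% to 18.1%). Without the doubted cells this was 5 of 48 cells, 10.4% (3.47% to 22.7%). Both intervals overlapped that of sub-cluster 5. By level, S1pr1 was higher in treated sub-cluster 2, at 136.3 CPM against 110.7 CPM in sub-cluster 5, and 1 cell gave 2999 of the 4497 reads there. In untreated mice S1pr1 was in 3 of 228 sub-cluster 2 and 1 of 43 sub-cluster 4 cells. The share of cells with Klf2 lay between 6.02% and 11.6% over the 5 pairs of group and sub-cluster with 43 or more cells. Its level varied more, from 14.2 CPM in treated to 42.6 CPM in untreated sub-cluster 2, a log2 ratio of -1.52 (-1.32 without the doubted cells), and from 42.5 to 50.1 CPM in sub-cluster 4.

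**Figure D3:**
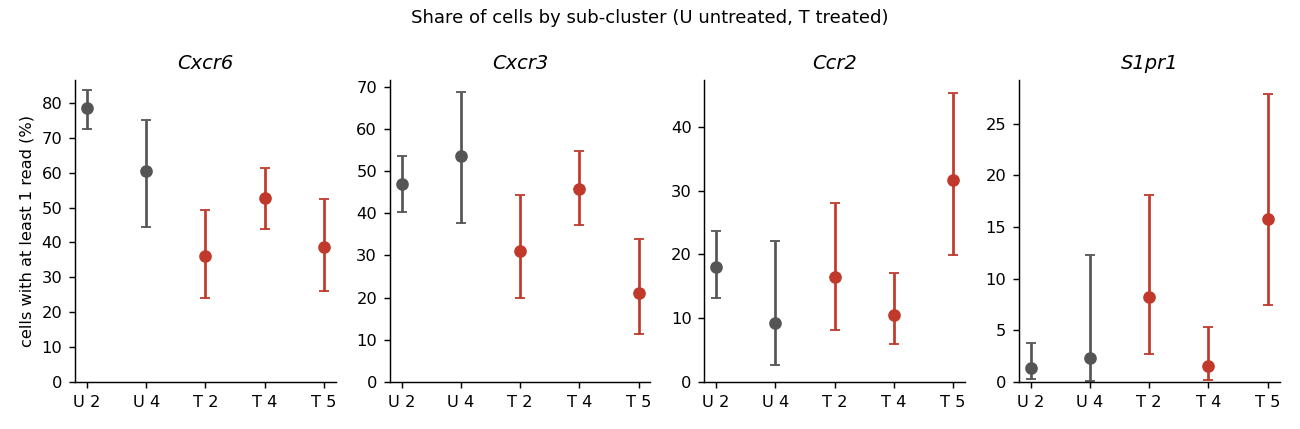
Points give the percentage of cells with at least 1 read of Cxcr6, Cxcr3, Ccr2 or S1pr1 in sub-clusters 2 and 4 of untreated mice (U, grey) and 2, 4 and 5 of treated mice (T, red), with exact 95% binomial intervals. Cxcr6 ran from 78.5% in untreated sub-cluster 2 to 36.1% in treated sub-cluster 2. The share with S1pr1 was highest, at 15.8%, in sub-cluster 5, with an interval that overlapped that of treated sub-cluster 2.

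Most cells carried few of the members. Of untreated cells 37 of 273 (13.6%) had reads of none of them, and of treated cells 62 of 251 (24.7%). Among untreated cells with Cxcr3, 82.3% also had Cxcr6, against 75.5% of all untreated cells, and among treated cells with Cxcr3 51.1% did, against 45.4%. Among the 16 treated cells with S1pr1, 6 had Cxcr6 (37.5%, 15.2% to 64.6%), against 108 of 235 treated cells without S1pr1 (46.0%, 39.5% to 52.6%). S1pr1 and Cxcr6 were thus found together in single cells, at a share within counting error of the other cells. The same 16 cells were set against the 235 others for the residency genes and a few more that were added after the values were seen. Cd69, a surface protein that pulls S1PR1 off the membrane, was in 3 of 16 and 45 of 235 cells. Rgs1, which dampens chemokine receptor signals, was in 4 of 16 and 121 of 235. Il21, a follicular helper and Tr1 cytokine, was in 6 of 16 (37.5%, 15.2% to 64.6%) and 20 of 235 (8.51%, 5.28% to 12.8%). It was the only gene of this comparison whose intervals did not overlap. Of the 16 cells 9 belonged to sub-cluster 5, which held 57 of the 251 treated cells, and the part of sub-cluster in this difference was not tested. Il10, which the study also names as a regulatory cytokine, was in 3 of 16 (18.75%, 4.05% to 45.65%) and 29 of 235 (12.3%, 8.42% to 17.2%). The intervals of Il10 overlapped.

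For the members with reads in at least 10% of all cells, the genes most alike across cells were weakly so. The measure was the mean of Spearman's rho within each group, among genes with reads in at least 20% of cells. It was taken over 273 untreated and 251 treated cells that are not independent samples. For Cxcr6 they were Id2 (0.16), B4galnt1 (0.13) and Tecr (0.13). For Cxcr3 they were Il2rb (0.20), Id2 (0.18) and Gimap3 (0.18), and for Ccr2 Hsp90b1 (0.18), Tnfrsf18 (0.15) and Elob (0.15). Such values are too low in sparse counts to be read as shared patterns.

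The genes around the members in their pathways were counted by list, to be read against the 20.1% of all genes over 2-fold higher and the 17.2% over 2-fold lower. Of 24 chemokine receptors, the 6 members included, 12 had at least 10 summed counts, of which 3 were over 2-fold higher and 6 over 2-fold lower in treated cells, with a median log2 ratio of -0.70. Of these 9, Cxcr6 alone was seen in 10% or more of the cells of either group. The higher ones, Ccr3, Ccr4 and Cx3cr1, had reads in 3, 3 and 4 treated cells. Genes seen in fewer cells than 10% were named after their values were seen. Of 10 genes of S1P receptors and S1P handling, 6 had as many counts, 3 were higher and 0 lower, with a median of 1.24. Beside S1pr1 these were S1pr5, another S1P receptor, with reads in 1 untreated and 18 treated cells, and Sgpl1, the lyase that breaks S1P down, with reads in 7 and 7. S1pr4, an S1P receptor within 2-fold, was at 154.6 and 300.7 CPM. Of 13 genes of naive or recirculating T cells, 12 had as many counts, with 5 higher, among them S1pr1, S1pr5, Ly6c2 and Cx3cr1, and 2 lower. Ly6c2 is also one of the 6 macrophage markers, and it had reads in 7 treated cells, 2 of them left without the doubted cells. Cx3cr1, a receptor also known from monocytes, had reads in 4 treated cells, of which 1 was left. Lef1, a transcription factor of naive T cells, was lower, with reads in 21 untreated and 5 treated cells. Il7r, the receptor for the survival cytokine IL-7, was also lower, at 191.3 CPM in 12.8% of untreated and 63.7 CPM in 5.18% of treated cells. Of 14 residency genes, all had as many counts, with 4 higher and 4 lower. Lower, beside Cxcr6, were Cd69 (1064 and 372.8 CPM in untreated and treated cells), Rgs2, which dampens G protein signals (390 and 183.2 CPM), and Bhlhe40, a transcription factor (327 and 84.5 CPM). Higher were Rgs1 (585.5 and 1332 CPM) and Itga1, the collagen-binding integrin chain CD49a (77.8 and 177.9 CPM), beside Itgae and Ahr, which had no reads in untreated cells and reads in 1 and 5 treated cells. Residency genes thus went both ways, at shares not far from those of all genes. Of 11 ligand genes of the members, 4 had as many counts, with 3 higher (Cxcl16, Ccl2 and Ccl25) and 0 lower, in at most 2 cells of a group. Of 6 genes that desensitize receptors, all had as many counts and 1 was higher, the receptor kinase gene Grk6, with reads in 3 untreated and 9 treated cells. Without the 13 doubted cells the numbers of genes higher and lower stayed at 3 and 6 for chemokine receptors, 3 and 0 for S1P genes and 5 and 2 for genes of recirculating cells. They were 4 and 5 for residency genes, 2 and 0 for ligands and 2 and 0 for desensitizing genes.

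In the WGBS data the members lay among 12 DMRs within 50 kb of a gene body, 7 hypo-methylated (lower in treated mice) and 5 hyper-methylated (higher). The authors chose these regions because the groups differed in them, so their direction is a description, and the read depth behind each value is unknown. Less methylation per cell and a different mix of cells cannot be told apart in these pooled values. Hypo-methylated DMRs were within 50 kb of 6 members, against 11.4% of all protein-coding genes, and hyper-methylated DMRs within 50 kb of 4, against 6.98%. Within 20 kb the count of members with hypo-methylated DMRs was 3, against 7% of genes. With DMRs of at least 20 CpG cytosines, counted on both strands, it was 1, against 4.30%. The hyper-methylated count was 3 in both, against 4.33% and 4.09% of genes. The 4 with hyper-methylated DMRs within 50 kb were Cxcr6, Ccr9, Ccr7 and S1pr1. They also had DMRs of the other direction, as did 1.58% of all protein-coding genes. Cxcr6 and Ccr9 lie side by side on chromosome 9 and share 4 of these regions, so they are not independent. Cxcr4 and Klf2 had none. The nearest DMR to Klf2 was 90.5 kb away.

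The Cxcr6 DMR, chr9:123806209-123806750, ran from -266 to 275 bases relative to the start of the transcript, across the promoter, the first exon with its untranslated part and the Fyco1 intron. Its methylation was 18.3% in untreated and 2.31% in treated mice (authors' value per group). All 13 cytosines in CpGs were lower in treated mice, with a mean over sites of 18.2% ± 6.26 and 2.23% ± 1.83 (SD over sites, not over mice). Cytosines outside CpGs in the region, a measure of incomplete conversion, were at 1.23% and 1.41%, so the treated CpGs were near that floor. The gap of -15.99 points was larger than that of 7.31% of the 1983 hypo-methylated DMRs, whose median was 37.6 points, and the region started from 18.3%. It was 1 of 9 hypo-methylated DMRs that hold the start of a protein-coding gene.

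Ccr9 had regions of both directions along its locus. The DMR over its start, chr9:123766750-123768246, ran from -461 to 1035 bases relative to the start, over an exon and untranslated bases, and was at 58.5% in untreated and 83.5% in treated mice, with all 31 cytosines higher. A second one, chr9:123769223-123770012, 2.01 kb after the start over further annotated exons, was at 34.3% and 71.7%, and another, chr9:123756859-123757182, 10.0 kb before it, was at 17.8% and 59.2%. The opposite was the intronic region 26 kb before the start, chr9:123740870-123741271, shown in part above, at 69.1% and 20.1%, with all 14 cytosines lower. Regions around the start were thus more methylated in treated mice and the distant one less.

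**Figure D4:**
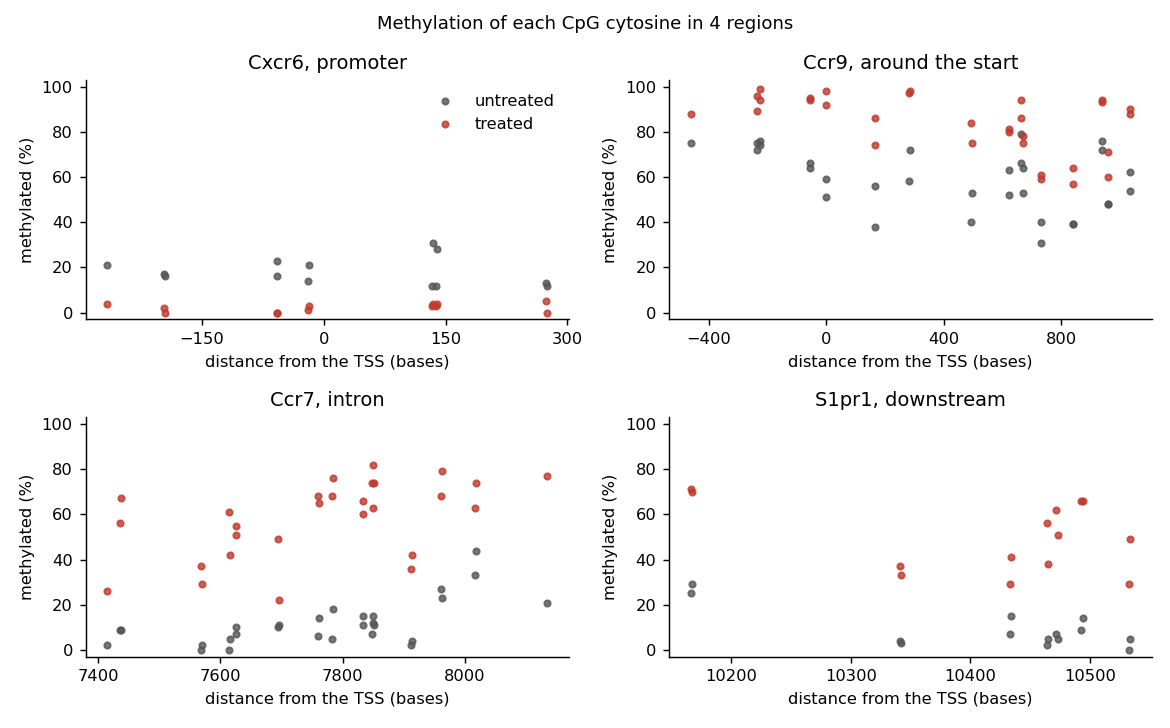
Each point is a cytosine of a CpG, with its methylated percentage in untreated (grey) and treated (red) mice against the distance in bases from the start of Cxcr6, Ccr9 (the DMR over its start), Ccr7 or S1pr1 in the direction of transcription. Treated points lay under untreated ones at Cxcr6 (region values of 18.3% and 2.31%) and above them in the other 3 regions.

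Ccr7, with no reads in the annotated cells, had the widest gain among these regions. The DMR in its intron, chr11:99146942-99147662, 7415 bases past the start, was at 10.1% in untreated and 58.2% in treated mice, and all 28 cytosines were higher. Its gain of 48.1 points was larger than that of 92.1% of the 890 hyper-methylated DMRs. A further DMR, chr11:99098985-99099315, 44.9 kb past the gene's end and nearest to Tns4, was at 81.5% and 41.8%.

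S1pr1 had DMRs on both sides, neither on the gene. The region shown above, chr3:115704538-115704906 in full, 5.53 kb past the end, was at 10.3% and 49.8%, with all 14 cytosines higher. The region 46.3 kb before the start, chr3:115761380-115761657, was at 81.3% and 37.2%, with all 15 lower. The member with more reads in treated cells thus had a gain of methylation nearby and a loss farther off.

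Cxcr3 had 1 DMR, chrX:101765097-101765596, 30.8 kb before its start, outside genes and nearest to Gm4779, at 75.8% and 40.7%. The untreated mice were female and the sex of the treated mice is not given. Of the 30 DMRs on X, 23 were hypo-methylated (76.7%), against 69.0% of 2839 on the autosomes, and the part of sex was not tested.

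CpG density differed between the members' promoters. RefSeq windows (GRCm38.p6) from 250 bases before to 50 after the start were at hand for 6 members. Klf2 held 32 CpGs and Cxcr4 20, while Cxcr3 and Ccr9 held 4, Cxcr6 3 and Ccr2 1, with a median of 7 over 32851 promoters. The letters CG occurred at least 20 times in 26.5% of these windows and at least 3 times in 76.7%. Of these 6 members, the 2 without a DMR within 50 kb, Klf2 and Cxcr4, were those with the most CpGs in the window. Ccr7 and S1pr1, which had DMRs within 50 kb, had no window at hand, and a link between CpG number and DMRs was not tested.

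The chromatin data came as fragments with cell barcodes that end in 1 or 2. Which ending is the untreated group is not given in the sources used here, so the values are given by ending and not as untreated or treated. With at least 1000 fragments, ending 1 had 8563 barcodes with 162692754 insertions (fragment ends, where the transposase cut) and ending 2 had 7235 with 149624472. Of these barcodes 100 had a sequence that occurs with both endings, and doublets were not removed. Insertions were counted within 2 kb on either side of the start and given per 1000000 insertions of the ending.

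Klf2, Cxcr4 and Cxcr6 had the most insertions, and the endings were close. Klf2 had 96.8 per 1000000 (95.3 to 98.4) in ending 1 and 87.5 (86.0 to 89.0) in ending 2, Cxcr4 had 74.4 and 68.7, and Cxcr6 had 40.4 and 35.6. The median promoter had 24.6 per 1000000 insertions in ending 1. At least 1 insertion was seen in 49.7% and 50.2% of barcodes at Klf2, in 40.9% and 40.6% at Cxcr4 and in 27.8% and 26.8% at Cxcr6. Reads and open chromatin thus ranked the members differently, with Cxcr4 open in the nuclei and scarce in reads. Ccr2 had 23.96 and 21.7 per 1000000 and Cxcr3 19.3 and 18.2. S1pr1 had 15.1 (14.5 to 15.7) in ending 1 and 22.8 (22.0 to 23.6) in ending 2, a ratio of 1.51 (1.43 to 1.59). Over the S1pr1 gene with 2 kb upstream the ratio was 0.979 (0.944 to 1.01). This wider window includes the one around the start, so the rest of it was lower in ending 2. Among bins of 200 bases around the start, the highest in ending 1 lay 2800 to 3000 bases past the S1pr1 start. In ending 2 the highest lay 0 to 200 bases past it. Ccr7 had 14.2 and 18.4, a ratio of 1.296 (1.23 to 1.37). Ccr9 had 6.41 (6.02 to 6.81) in ending 1 and 2.59 (2.34 to 2.86) in ending 2, a ratio of 0.404 (0.358 to 0.454). It was the 1 member over 2-fold higher in ending 1, where 0.864% of 16323 promoters with at least 100 insertions were, and 0 members were over 2-fold higher in ending 2, where 5.94% were. Over the Ccr9 gene with 2 kb upstream the ratio was 0.815 (0.800 to 0.831), within 2-fold.

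The DMRs near the members were told apart by the endings more than their promoters. Of all hypo-methylated DMRs with at least 50 insertions, 75.8% were over 2-fold higher in ending 2 and 0.125% in ending 1, and of the hyper-methylated ones 37.1% were over 2-fold higher in ending 1 and 1.11% in ending 2. Among the 7 hypo-methylated regions of the members, 5 were over 2-fold higher in ending 2 and 0 in ending 1, and among the 5 hyper-methylated ones 3 were over 2-fold higher in ending 1. The first share lies near that of all hypo-methylated DMRs, and 3 of 5 are too few to set beside 37.1%. The region 44.9 kb past Ccr7 had 30 insertions in ending 1 and 452 in ending 2, a ratio of 16.4 after scaling (11.3 to 24.6). The region 26 kb before the Ccr9 start had 37 and 398, a ratio of 11.7 (8.34 to 16.9). The region before S1pr1 had 19 and 53, a ratio of 3.03 (1.77 to 5.43), and the region before Cxcr3 201 and 390, a ratio of 2.11 (1.77 to 2.51).

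The Cxcr6 promoter DMR stood on the other side of most hypo-methylated regions. It had 3716 insertions in ending 1 and 2751 in ending 2, a ratio of 0.805 (0.766 to 0.846), where the median of the hypo-methylated DMRs was 4.18. Of 1602 such regions 68 were higher in ending 1 at all. Its density of 42.1 insertions per kb, scaled like the promoters, in ending 1 was also the highest of the 12 regions, the next being the hyper-methylated region before the Ccr9 start at 5.96. The hyper-methylated regions were lower in ending 2 throughout. The ratio was 0.325 (0.256 to 0.410) over the Ccr9 start, 0.392 after it and 0.454 before it, 0.511 (0.423 to 0.617) past S1pr1 and 0.634 (0.551 to 0.728) in the Ccr7 intron.

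**Figure D5:**
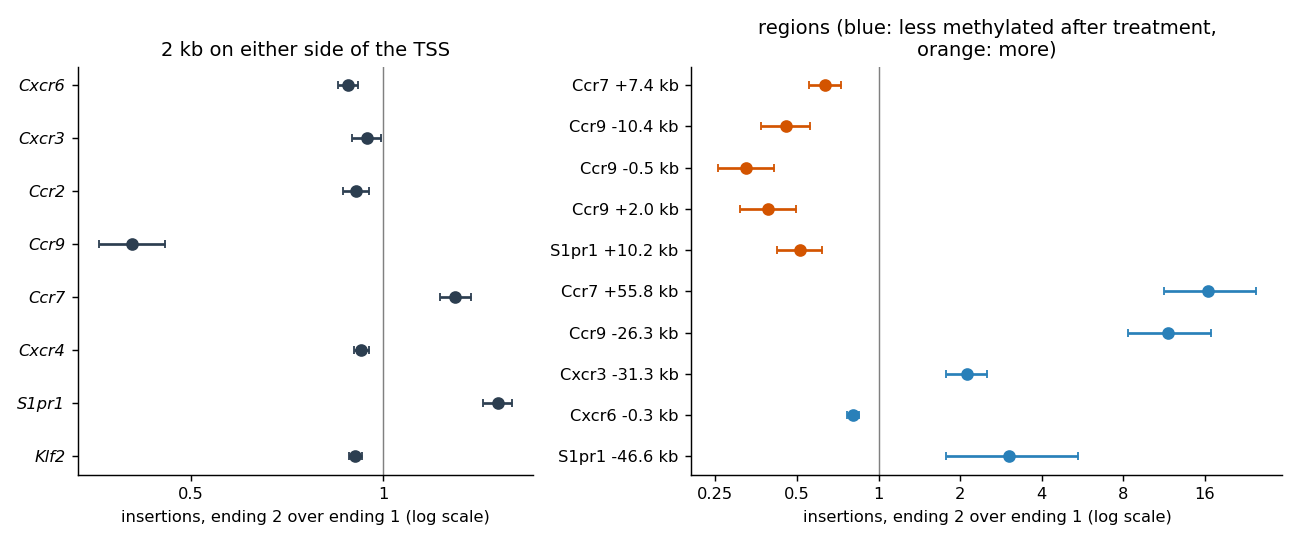
Points give transposase insertions per 1000000 in barcode ending 2 over ending 1, on a log axis with 1 as the grey line and exact 95% intervals for counting error, at the 8 promoters (left) and 10 of the 12 DMRs, named by gene and distance from its start (right). Promoters lay between 0.404 (Ccr9) and 1.51 (S1pr1), while hypo-methylated regions reached 16.4 and the Cxcr6 promoter region lay at 0.805.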

How the data were processed

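SmartSeq2 counts were deposited by the authors as reads per gene and cell, aligned with STAR to GRCm38, without molecular identifiers. WGBS fractions were deposited as 1 value per cytosine and group, and as region means per group, after BSMAP alignment to mm10 and region calling with metilene. How replicates were merged and the read depth are not given in the sources used here. The region table of the authors also holds a q-value and a signed score, the difference between group means. The q-value served only as a threshold, at 0.05, and the score was not used. Chromatin fragments were deposited with the count of read pairs behind each, from Cell Ranger ARC.

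The 8 members and all lists were chosen with earlier results of these data known. Counts were summed per group over cells with a sub-cluster in the study's annotation (a supplement of its paper), scaled to CPM, and compared as log2 ratios with 1 CPM added. A gene passed at 10 summed counts. With 1 sample per group no test was made, and over 2-fold was the call. Of 55401 gene identifiers, 55141 matched a symbol. DMRs were assigned to genes of GENCODE M21 within 50 kb. The start of a gene was the lower median of the starts of its APPRIS principal transcripts, or failing these of its basic ones. CpG sites (58375 of 376954 listed cytosines, all at C or G of GRCm38) were picked from the genome. The genes named were the members, genes on or nearest to their DMRs, list genes over 2-fold that were seen in 10% or more of the cells of either group, and the 3 genes most alike. Other list genes in the text fall outside this rule and were picked with their values known. The markers of other cells were read as lists. Simulated data were used to check the ratio, interval and overlap steps. Python 3.11.15, numpy 2.4.6, pandas 2.3.3 and scipy 1.17.1 were used. Alternatives were other cells, lanes, scalings, priors, filters, distances and windows. Some genes and regions are not reported here. The bulk chromatin, histone mark and 10X RNA samples were not used here.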

Additional observations from a re-analysis of the deposited data

Results flagged for a closer look

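The Ccr2 level differed in opposite directions within the sub-clusters that both groups hold. The log2 ratio of treated over untreated, here with no CPM added, was -0.77 in sub-cluster 2 (146.7 CPM without and 86.1 CPM with treatment). In sub-cluster 4 it was 0.63 (77.5 and 120.2 CPM), where the untreated level rests on 4 cells with reads. The level in treated sub-cluster 2 rests mostly on 1 cell, which gave 2306 of its 2840 Ccr2 reads. With 1 sample per group this difference was not tested. The shares of cells with Ccr2 reads lay within counting error of each other, at 18.0% and 16.4% in sub-cluster 2 and at 9.30% and 10.5% in sub-cluster 4. Treated sub-cluster 2 holds the 13 doubted cells, 4 of them with Ccr2 reads. Without them its share was 6 of 48 cells (12.5%, 4.73% to 25.2%), its level 109.2 CPM and the log2 ratio, with 1 CPM added to each side, -0.42.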

How the results depend on the processing

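Of 50 counts of members past a threshold under other settings, 15 differed from the reported count, 7 of them by over 1.5-fold. The count of members over 2-fold higher in treated cells, 1 as reported, was 2 over all cells of the tables, where Ccr7 joined with a log2 ratio of 3.35 from 2 cells, and 0 among sub-cluster 4 cells. The count over 2-fold lower, 3 as reported, was 1 among sub-cluster 4 cells, where Cxcr6 was at -0.58. It was 2 in lane 1 and with 10 CPM added, and 4 in lane 2 and in sub-cluster 2, where Klf2 joined. Of 80 log2 ratios of members, 21 differed from the reported one by a factor of over 1.5, and Klf2 was higher in lane 1 (0.25) and lower in lane 2. The 6 members with a hypo-methylated DMR became 3 within 20 kb (7% of all protein-coding genes) and 1 with at least 20 CpG cytosines (4.3%). At 1.5-fold, 1 promoter (S1pr1) was higher in ending 2, and over the gene with 2 kb upstream 0 were higher in ending 1, with Ccr9 at -0.29 and S1pr1 at -0.03. Of 112 shares of cells, 8 left the interval of the reported share. In lane 2 the untreated shares were 82.0% for Cxcr6, 23.6% for Ccr2, 6.74% for Cxcr4 and 16.9% for Klf2, and the treated shares 24.4% for Ccr2 and 3.85% for Klf2. With at least 10 reads, untreated Ccr2 was at 12.1% and treated Cxcr4 at 0.797%. S1pr1 was at 0.33 among sub-cluster 4 cells (1 untreated and 2 treated cells with reads), and Cxcr4 at -0.42 with 10 CPM added. The cause of these shifts was not tested. The sub-cluster settings and those without the 13 doubted cells or with 500 bases around the start were chosen after seeing the data. Leaving out replicates was not possible with 1 sample per group. No paired analysis was possible because each table used here holds 1 sample or 1 value per group.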
